A study of Mus musculus with 1627 samples.

Results

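The chaperone genes described here are 37 of the 23725 genes in a count table of single regulatory T cells. They were chosen by name, and they cover 17 cytosolic genes (Hsp70, Hsp110, Hsp90, J proteins and Hsp90 co-chaperones), 3 mitochondrial genes, the 8 subunits of the CCT chaperonin and 9 genes of the endoplasmic reticulum (ER). The cells were Tregs, the CD4+ T cells that restrain immune responses, taken from the spleen and from injured muscle of mice that were male and 8 months old. All mice were of the strain B6 Foxp3-Ires-Gfp, in which green fluorescent protein is made with Foxp3, the transcription factor that defines Tregs, and all cells of every library came 4 days after muscle injury with cardiotoxin, which comes from snake venom and kills muscle fibres. The spleen cells are therefore from injured mice, and no library comes from uninjured mice. Spleens were dissociated mechanically while muscles were digested with collagenase and dispase, so tissue and dissociation cannot be told apart in any value below. Cells were sorted as DAPI- TCRb+ CD4+ GFP+ and profiled with inDrops, a droplet method that captures mRNA by its poly(A) tail and counts unique molecular identifiers (UMIs).

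Chaperones bind unfolded proteins and use ATP to help them reach their fold. In the cytosol, Hsp70 takes its clients from J proteins, Hsp110 proteins recharge it with ATP, and Hsp90 with its co-chaperones finishes kinases, receptors and transcription factors. CCT is a double ring that folds actin and tubulin, Hsp60 and Hsp10 form the matching chamber in mitochondria, and the ER has its own Hsp70, Hsp90, lectin chaperones and disulfide isomerases for secreted and membrane proteins. The transcription factor Hsf1 induces many cytosolic and mitochondrial members through heat shock elements, and the unfolded protein response induces the ER members through another element.

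The spleen gave 1 library of 259 cells and 982570 UMIs. Muscle gave 2 libraries, of 674 cells with 1533277 UMIs (muscle library 1) and 694 cells with 1916496 UMIs (muscle library 2). The median cell held 3541, 1976 and 2488 UMIs in that order, at a median of 42.7, 19.6 and 35.6 mapped reads per UMI, so thinning cells to the same UMI number does not equal out the sequencing depth. In the same order, ribosomal protein genes took 22.9%, 13.9% and 14.2% of the UMIs. The labels name no animal, so each library is 1 sample and no p-value was computed. Levels are in CPM, a gene's part of a library's summed UMIs multiplied by 1000000, where 1 UMI is worth 1.02, 0.652 and 0.522 CPM, and folds are given with exact 95% intervals. These cover counting error only, and leave aside that a gene's UMIs gather in single cells. In sums over cells, fewer cells that make an mRNA and less of it per cell cannot be told apart. Both muscle libraries are compared with the same spleen library, so their folds share its error. Muscle libraries 1 and 2 had 11 cell barcodes in common, and the spleen shared 1 with muscle library 1 and 0 with muscle library 2. Foxp3 stood at 368, 554 and 552 CPM in spleen, muscle library 1 and muscle library 2, and Cd3e at 221, 222 and 223 CPM.

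**Figure D1:**
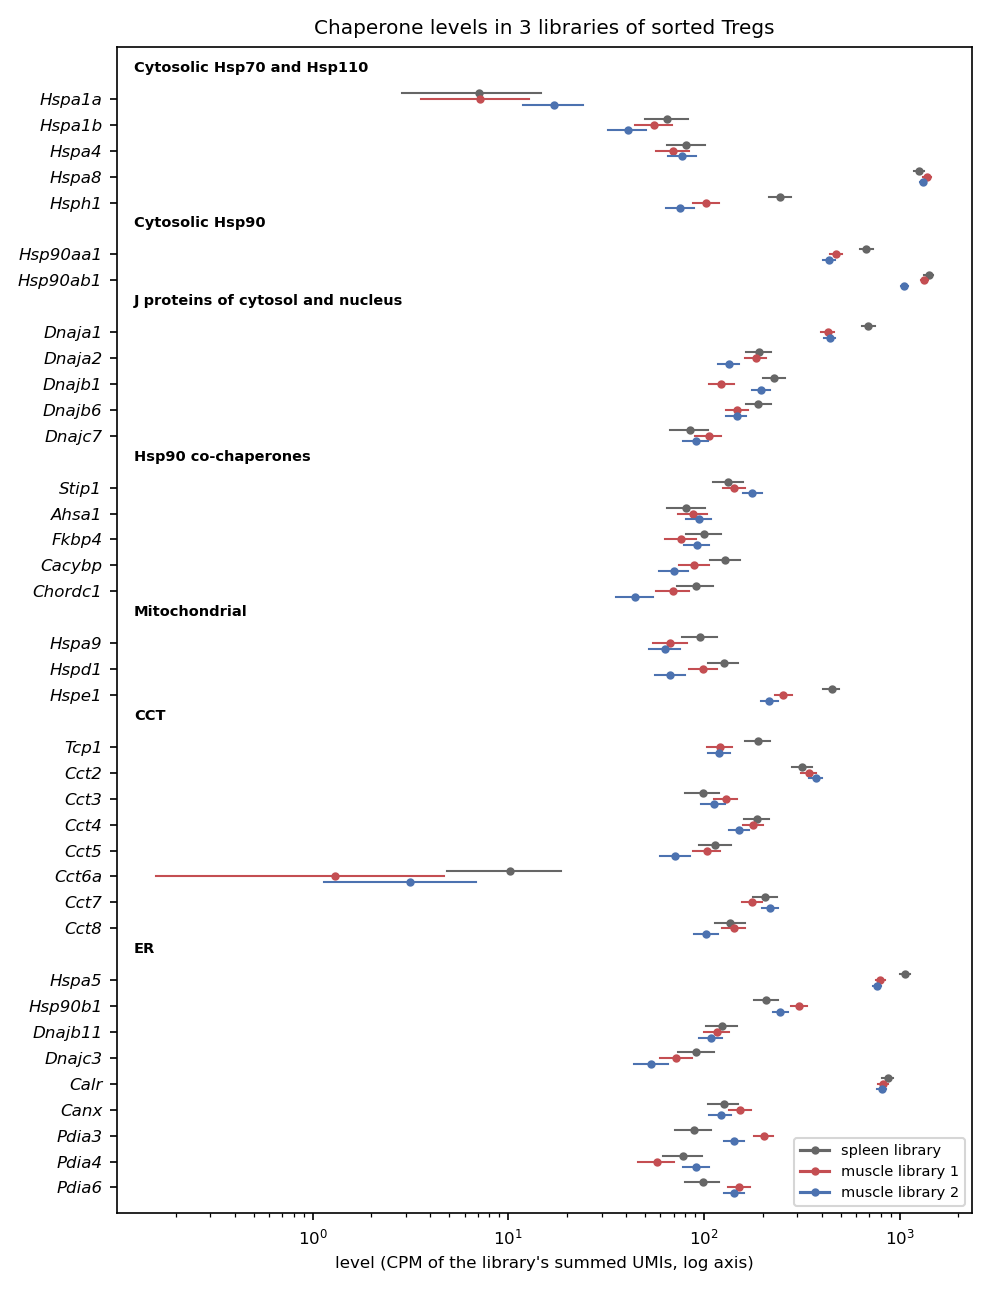
Level of each of the 37 chaperone genes in the spleen library (grey), muscle library 1 (red) and muscle library 2 (blue), as CPM on a log axis, where lines are exact 95% Poisson intervals. Levels are to be compared within a gene and not between genes. Hsph1 stands at 246 CPM in spleen against 103 and 75.7 CPM in muscle, while Hspa8 is at 1260.0, 1381 and 1315 CPM.

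Most chaperone genes differed little between spleen and muscle, and those that differed were more often lower in muscle. Of the 37 genes, 36 reached the minimum of 50 UMIs over the 3 libraries, the exception being the CCT subunit gene Cct6a. A gene was called where both muscle libraries differed from spleen at least 2-fold in the same direction, a rule of size that is no test. By it 0 of 36 chaperones were higher in muscle, against 7.47% of the 7617 genes examined. The 1 chaperone lower in muscle was Hsph1, which is 2.78% of the 36 against 3.45% of all genes. Neither share stands above its background. At a smaller size of 1.5-fold, 1 chaperone was higher (Pdia3), beside 15.9% of all genes, and 4 were lower (Hsph1, Dnaja1, Hspe1 and Tcp1), beside 10.8%. The lower count is 11.1% of the chaperones and thus near the background.

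Directions without any size requirement were less even. In both muscle libraries 22 of 36 chaperones (61.1%) lay below spleen, where 35.4% of all genes did, and 10 (27.8%) lay above it, where 43.3% of all genes did. The 22 were made up of 12 of 17 cytosolic genes, 3 of 3 mitochondrial genes, 3 of 7 CCT genes and 4 of 9 ER genes. Both fold intervals lay below 1 for 9 chaperones (25%), beside 12.4% of all genes, and both lay above 1 for 3 chaperones (8.33%), beside 16.6% of all genes. Intervals are narrower for genes with more UMIs, and the background, which begins at 50 UMIs, was not matched for UMI number. These shares are therefore not a like comparison. The 3 above were all ER genes, namely Hsp90b1, Pdia3 and Pdia6. The 9 below were Hsph1, Hsp90aa1, Dnaja1, Dnajb6, Cacybp, Hspa9, Hspe1, Tcp1 and Hspa5, so they span all 4 compartments.

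The median of the mean log2 fold over both muscle libraries was -0.21 for the 36 chaperones and 0.05 for all genes examined. By compartment it was -0.29 for cytosolic, -0.63 for mitochondrial, -0.18 for CCT and -0.09 for ER genes. The log2 folds of the muscle libraries differed from each other with an SD of 0.40 over the chaperones and 0.50 over all genes. The mitochondrial median rests on 3 genes. When totals left out ribosomal protein genes, the median log2 fold of all genes moved by library, from 0.06 to -0.10 in the first and from 0.08 to -0.07 in the second, and the chaperone median moved to -0.37.

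**Figure D2:**
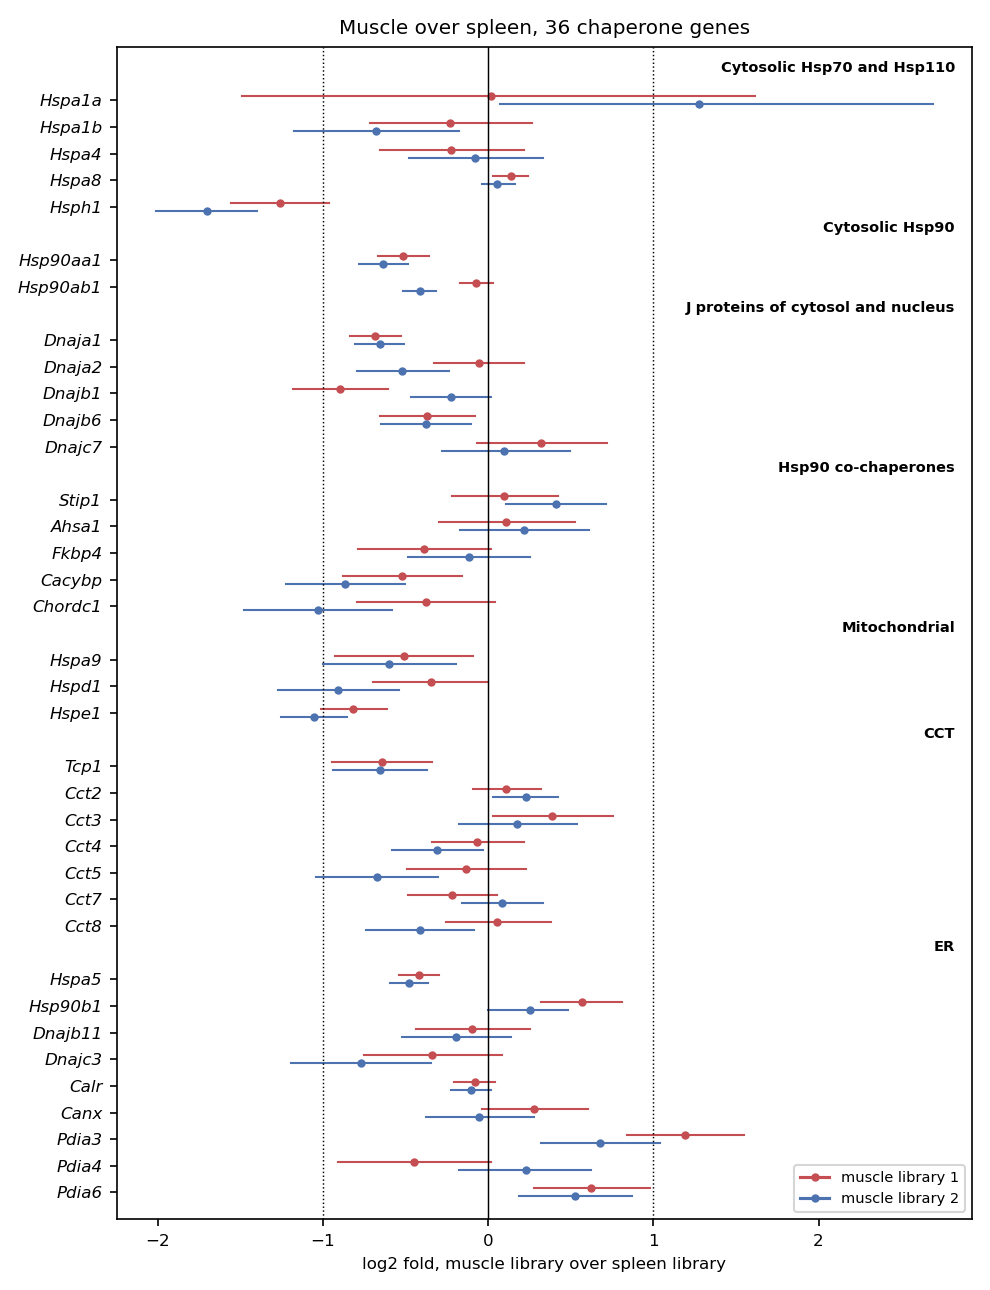
Log2 fold of muscle library 1 (red) and muscle library 2 (blue) over the spleen library for the 36 chaperone genes past the UMI minimum, grouped by family, with exact 95% intervals as lines and dotted lines at 2-fold. Hsph1 alone is past 2-fold in both libraries, and Pdia3 has the largest fold above spleen among the genes whose intervals both exclude 0.

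Among the cytosolic Hsp70 and Hsp110 genes, Hsph1 fell. It encodes Hsp105, an Hsp110 protein that exchanges the nucleotide of Hsp70, and lies at chr5:149614287-149636376 on the minus strand. Hsph1 had 242 UMIs in spleen against 158 and 145 in muscle libraries 1 and 2, or 246, 103 and 75.7 CPM. The muscle level was 2.39 times lower in library 1 (95% interval 1.95 to 2.94) and 3.26 times lower in library 2 (2.64 to 4.03). In cells thinned to 1000 UMIs, 11.6% of spleen cells had an Hsph1 UMI (95% interval 7.95 to 16.1), against 6.64% (4.84 to 8.83) and 4.22% (2.84 to 6.01) of muscle cells. Without thinning the shares were 17.8%, 9.64% and 7.2%. At 1000 UMIs per cell the variance of Hsph1 over cells was 3.53, 1.59 and 2.39 times its mean in spleen, muscle library 1 and muscle library 2. In that order, 1.21%, 24.8% and 4.66% of genes were at or above that value. The 5 richest cells of each library held 28.9%, 24.7% and 27.6% of the Hsph1 UMIs, where the median gene had 47.9%, 23.8% and 24.1%. With those cells left out of each library, Hsph1 was still 2.26 and 3.22 times lower in muscle.

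The other Hsp110 gene of the group did not follow Hsph1. Hspa4, whose protein is likewise an exchange factor, was at 81.4, 69.8 and 77.2 CPM, and both intervals of its folds included 1. Hsph1 made up 75.2% of the UMIs of the Hsph1 and Hspa4 pair in spleen (70.1 to 79.8), 59.6% in muscle library 1 (53.4 to 65.6) and 49.5% in muscle library 2 (43.6 to 55.4). Hspa8, the constitutive cytosolic Hsp70, was at 1260.0, 1381 and 1315 CPM, a fold of 1.1 (1.02 to 1.18) and 1.04 (0.975 to 1.12). Its mean log2 fold of 0.10 turned to -0.06 when totals left out ribosomal protein genes.

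Hspa1a and Hspa1b encode the stress-inducible Hsp70 and lie near each other at chr17:34969190-34972156 and chr17:34956436-34959238, both on the minus strand. Their sequences are nearly the same, so the counting may have split or lost reads between them and their separate values are uncertain. Hspa1a had 7, 11 and 33 UMIs in spleen, muscle library 1 and muscle library 2, or 7.12, 7.17 and 17.2 CPM, a fold of 1.01 (0.356 to 3.06) and 2.42 (1.05 to 6.47). Hspa1b had 64, 85 and 78 UMIs, or 65.1, 55.4 and 40.7 CPM, a fold of 0.851 (0.608 to 1.2) and 0.625 (0.443 to 0.884). Together they made up 5.42% of the UMIs of Hspa1a, Hspa1b and Hspa8 in spleen (4.26 to 6.79), 4.34% in muscle library 1 (3.53 to 5.27) and 4.22% in muscle library 2 (3.48 to 5.06). These intervals overlap, and the counts rest on few cells.

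The 250 bases before the RefSeq start of these genes are printed here because they are near copies of each other and hold the same heat shock element. They are equal at 247 of 250 bases. Sequences here are from RefSeq with build GRCm38.p6, written 5′ to 3′ on the gene's strand. Capitals mark GAA and TTC units with 2 bases between them, the core of a heat shock element. The windows are chr17:34972157-34972406 and chr17:34959239-34959488, both on the minus strand.
Hspa1a: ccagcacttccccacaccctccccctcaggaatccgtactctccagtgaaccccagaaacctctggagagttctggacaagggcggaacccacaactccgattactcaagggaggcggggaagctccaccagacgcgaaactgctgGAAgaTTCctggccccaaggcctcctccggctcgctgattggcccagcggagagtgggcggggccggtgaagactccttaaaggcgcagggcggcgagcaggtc
Hspa1b: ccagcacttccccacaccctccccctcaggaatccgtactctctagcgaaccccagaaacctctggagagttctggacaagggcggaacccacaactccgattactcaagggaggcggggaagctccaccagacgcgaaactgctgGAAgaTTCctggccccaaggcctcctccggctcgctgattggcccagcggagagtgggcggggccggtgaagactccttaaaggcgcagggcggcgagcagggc

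Inducible Hsp70 transcripts were held by few cells. The 5 richest cells had 65.6%, 55.3% and 61.5% of the Hspa1b UMIs in spleen, muscle library 1 and muscle library 2, where the median gene had 47.9%, 23.8% and 24.1%. At 1000 UMIs per cell the variance of Hspa1b over cells was 2.07, 5.9 and 4.67 times its mean, and 16.8%, 0.0656% and 0.118% of genes were at or above that value. Hspa4, which had 80, 107 and 148 UMIs, reached 2.57, 1.14 and 1.25. By this measure, from 1 draw of 1000 UMIs per cell, Hspa1b stood far out in the muscle libraries and did not in the spleen library. On all UMIs, cells with Hspa1b were 5.79%, 3.26% and 2.74% of each library and held 4.27, 3.86 and 4.11 of its UMIs on average. That average is another measure and is not adjusted for the deeper spleen cells. Cells with at least 2 UMIs of Hspa1a and Hspa1b together numbered 12 of 259 in spleen, 16 of 674 in muscle library 1 and 17 of 694 in muscle library 2, and they held 91.5%, 92.7% and 92.8% of those UMIs.

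**Figure D3:**
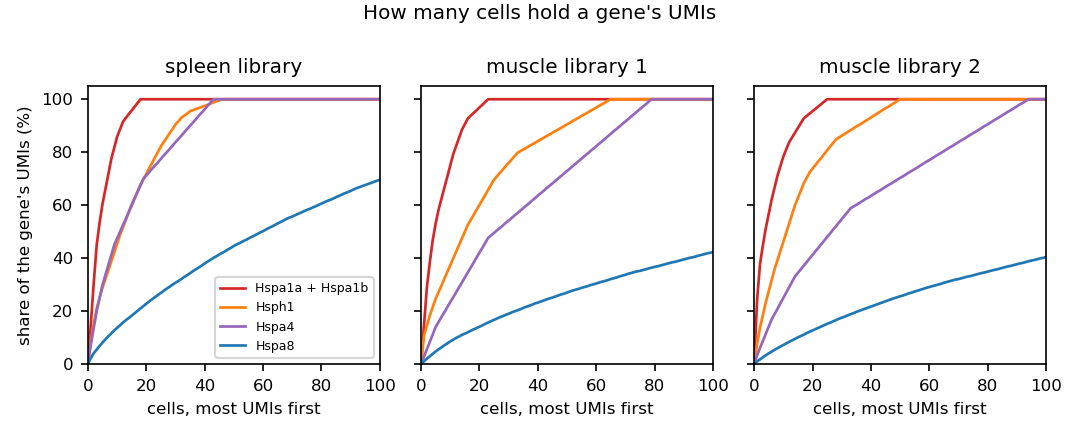
Cumulative share of a gene's UMIs (percent) over the 100 cells of each library with the most UMIs of it, for Hspa1a with Hspa1b (red), Hsph1 (orange), Hspa4 (purple) and Hspa8 (blue), in the spleen library, muscle library 1 and muscle library 2. The libraries have 259, 674 and 694 cells, and the red curve reaches 100% at 18, 23 and 25 cells.

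The Hsp90 genes were lower in muscle by less than 2-fold. Hsp90aa1, the inducible cytosolic Hsp90, was at 677, 474 and 436 CPM, a fold of 0.701 (0.63 to 0.779) and 0.644 (0.581 to 0.714). Hsp90ab1, the constitutive form, was at 1409, 1341 and 1058 CPM, a fold of 0.952 (0.889 to 1.02) and 0.751 (0.701 to 0.805). Hsp90aa1 made up 32.5% of the UMIs of the pair in spleen (30.4 to 34.5), 26.1% in muscle library 1 (24.5 to 27.8) and 29.2% in muscle library 2 (27.5 to 30.9). The inducible share of each muscle library lay below that of spleen, but the intervals of spleen and muscle library 2 overlapped. The difference itself was not tested.

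J proteins hand clients to Hsp70 and stimulate its ATPase. Dnaja1 was at 692, 431 and 439 CPM, a fold of 0.623 (0.559 to 0.694) and 0.635 (0.573 to 0.703). Dnajb1, a J protein induced by heat shock, was at 229, 123 and 196 CPM, a fold of 0.538 (0.441 to 0.656) in library 1 and 0.854 (0.722 to 1.01) in library 2. Dnajb6, which holds back aggregation, was at 190, 147 and 147 CPM. Dnaja2 was at 191, 184 and 134 CPM, and Dnajc7, which also binds Hsp90, at 84.5, 106 and 90.8 CPM. As a family the 5 J protein genes took 0.139% of UMIs in spleen and 0.0991% and 0.101% in muscle, a fold of 0.715 (0.664 to 0.769) and 0.725 (0.676 to 0.778).

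The 5 Hsp90 co-chaperone genes went both ways. Cacybp, which binds S100 proteins and a ubiquitin ligase, was at 128, 89.4 and 70.4 CPM, with both intervals below 1. Chordc1, a CHORD domain protein that binds Hsp90, was at 90.6, 69.8 and 44.4 CPM, 2-fold lower in library 2 only, with a fold of 0.49 (0.359 to 0.667). Fkbp4, a prolyl isomerase of steroid receptor complexes, was at 99.7, 76.3 and 91.8 CPM. Stip1, the adaptor that joins Hsp70 to Hsp90, was at 133, 143 and 177 CPM, a fold of 1.07 (0.859 to 1.34) and 1.33 (1.08 to 1.64). Ahsa1, which activates the ATPase of Hsp90, was at 81.4, 88 and 94.4 CPM, and its mean log2 fold of 0.16 turned to -0.19 when each cell weighed the same.

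The 3 mitochondrial genes were lower in both muscle libraries. Hspe1 encodes Hsp10, the lid of the Hsp60 chamber, and had 441, 391 and 414 UMIs, or 449, 255 and 216 CPM. Its muscle level was 1.76 times lower in library 1 (1.53 to 2.02) and 2.08 times lower in library 2 (1.81 to 2.38), so library 1 fell short of the 2-fold rule. Where each cell weighed the same its mean log2 fold was -1.10 and the rule was met. At 1000 UMIs per cell, 24.3% of spleen cells had an Hspe1 UMI (19.2 to 30), against 14.8% (12.2 to 17.8) and 14.6% (12 to 17.4) of muscle cells, and unthinned shares were 45.9%, 25.8% and 23.8%. Hspd1, which encodes Hsp60, was at 126, 99.1 and 67.3 CPM, a fold of 0.786 (0.616 to 1) and 0.533 (0.414 to 0.688). Hspa9, the mitochondrial Hsp70, was at 95.7, 67.2 and 63.1 CPM, a fold of 0.702 (0.526 to 0.939) and 0.66 (0.5 to 0.873).

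Hspd1 and Hspe1 are neighbours that are read away from each other, at chr1:55077835-55088243 on the minus strand and chr1:55088132-55091307 on the plus strand. Their tabled promoter windows overlap by 285 bases and hold 1 heat shock element of 4 alternating units, read from either strand. It is shown as each gene reads it, at chr1:55088054-55088081, with the units in capitals and 5 flanking bases on each side.
Hspd1: gggccTTCcgGAAggTTCtaGAAcggac
Hspe1: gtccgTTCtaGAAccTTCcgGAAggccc
The share of Hspe1 in the UMIs of the pair was 78.1% in spleen (74.4 to 81.4), 72% in muscle library 1 (68 to 75.7) and 76.2% in muscle library 2 (72.4 to 79.8). The intervals of both muscle libraries overlapped that of spleen.

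Heat shock elements were found before other cytosolic and CCT genes as well. RefSeq promoter windows were matched for 32 of the 37 genes, and Hspa8, Hsp90aa1, Hsp90ab1, Hspa9 and Cct4 had no entry. A pair of GAA and TTC units with 2 bases between, in either order, occurred in the 250 bases before the start in 12.8% of 32851 promoters and in 12 of 41 chaperone promoters (29.3%). These belong to 10 genes, of which 6 are cytosolic, 2 mitochondrial, 2 CCT and 0 ER. Among them Hsph1, Dnaja1, Dnajb6 and Hspe1 had both fold intervals below 1, and Hspa1a, Hspa1b, Fkbp4, Hspd1, Cct2 and Cct5 did not. Both intervals lay below 1 for 25% of the 36 chaperones and for 12.4% of all genes examined. The share among all genes with the element was not computed, and a relation between element and level was not tested. A run of 3 alternating units occurred in 0.466% of all promoters and in 4 of the 41 chaperone promoters, those of Hspd1, Hspe1 and 2 starts of Dnajb6. The elements of Hsph1 (chr5:149636357-149636374, minus strand), Dnaja1 (chr4:40722339-40722356, plus strand) and Dnajb6 (chr5:29735847-29735869, plus strand) are printed because these genes had both intervals below 1, and that of Cct2 (chr10:117063405-117063422, minus strand) because that gene did not.
Hsph1: aatctTTCtcGAAggctc
Dnaja1: ctctaGAAaaTTCtacga
Dnajb6: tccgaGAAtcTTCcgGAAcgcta
Cct2: gtgaaGAAgtTTCtagca
A match of letters is a description and not evidence that a factor binds there.

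Among the CCT genes, Tcp1 alone had both intervals below 1. Tcp1 encodes the alpha subunit and was at 188, 121 and 119 CPM, a fold of 0.641 (0.52 to 0.79) and 0.635 (0.521 to 0.775). The size of this difference depended on the setting, with a mean log2 fold of -0.53 where each cell weighed the same and 0.05 in 1 draw of 1000 UMIs per cell. In that draw Tcp1 UMIs were in 7.72% of spleen cells (4.78 to 11.7) against 9.41% (7.28 to 11.9) and 9.75% (7.64 to 12.2) of muscle cells. At 750 UMIs the shares were 9.65%, 7.27% and 7.93%, and without thinning 20.5%, 16.9% and 17.7%. Cct2 was at 318, 344 and 372 CPM and Cct3 at 98.7, 129 and 112 CPM, both above spleen in muscle, although Cct3 reached a mean log2 fold of -0.41 in thinned cells. Cct4 was at 187, 179 and 151 CPM and Cct5 at 114, 104 and 71.5 CPM, where the fold of Cct5 was 0.91 (0.71 to 1.17) and 0.627 (0.485 to 0.812). Cct7 was at 206, 177 and 218 CPM and Cct8 at 136, 142 and 102 CPM, so these lay on different sides of spleen in the muscle libraries. Cct6a had 10, 2 and 6 UMIs and was not compared. The gene of that name in GENCODE M21 is typed as a processed transcript, and its low count may depend on the annotation and on how reads with several matches were counted. The products of these genes form 1 complex, and the CCT share of UMIs was 0.126% in spleen, 0.12% and 0.115% in muscle, a fold of 0.951 (0.884 to 1.02) and 0.914 (0.852 to 0.981).

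ER chaperones differed in direction from each other. Pdia3, the disulfide isomerase that works with calreticulin and calnexin on glycoproteins, lies at chr2:121413775-121438687 on the plus strand and had 87, 309 and 272 UMIs, or 88.5, 202 and 142 CPM. This is a fold of 2.28 (1.79 to 2.92) and 1.6 (1.25 to 2.06), past 2-fold in library 1 only. At 1000 UMIs per cell 8.88% of spleen cells (5.71 to 13) had a Pdia3 UMI, against 18.5% (15.6 to 21.7) and 13.8% (11.3 to 16.6) of muscle cells, and unthinned shares were 24.7%, 32.2% and 27.5%. Pdia6, another isomerase, was at 98.7, 152 and 142 CPM, a fold of 1.54 (1.21 to 1.97) and 1.44 (1.14 to 1.83). Hsp90b1, the ER Hsp90 that folds integrins and Toll-like receptors, was at 208, 307 and 246 CPM, a fold of 1.48 (1.25 to 1.75) and 1.19, whose interval began just above 1. Pdia4 did not go with them, at 78.4, 57.4 and 91.3 CPM.

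Hspa5 encodes BiP, the ER Hsp70 that also binds the sensors of the unfolded protein response, and was lower in muscle. It stood at 1068, 799 and 767 CPM, a fold of 0.748 (0.689 to 0.813) and 0.718 (0.663 to 0.778). Dnajc3, a J protein partner of BiP, was at 91.6, 72.4 and 53.7 CPM. Dnajb11, its J protein for unfolded clients, was at 124, 116 and 109 CPM. The lectin chaperones were near spleen, with Calr at 870, 823 and 810 CPM and Canx at 126, 153 and 122 CPM. The ER genes together took 0.275% of UMIs in spleen (0.265 to 0.286), 0.268% in muscle library 1 (0.26 to 0.276) and 0.248% in muscle library 2 (0.241 to 0.255).

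The ER stress response element, CCAAT and CCACG with 9 bases between them on either strand, occurred before 6 of the 9 ER genes and before 0 of the matched genes in the other compartments. Of all 32851 promoters 37 (0.113%) held it. The elements are shown with CCAAT and CCACG in capitals and 5 flanking bases on each side. They are printed because genes that hold the element lay on both sides of spleen. They lie at chr2:34772020-34772048 (Hspa5, plus strand), chr14:118937822-118937850 (Dnajc3, plus), chr12:17266486-17266514 (Pdia6, plus), chr10:86705633-86705661 (Hsp90b1, minus) and chr8:84847070-84847098 (Calr, read on the plus strand, opposite to the gene).
Hspa5: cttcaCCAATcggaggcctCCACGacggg
Dnajc3: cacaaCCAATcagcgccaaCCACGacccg
Pdia6: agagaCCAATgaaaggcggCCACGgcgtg
Hsp90b1: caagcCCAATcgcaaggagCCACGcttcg
Calr: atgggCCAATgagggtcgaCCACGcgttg
Hspa5 and Dnajc3 were below spleen in both muscle libraries, Pdia6 and Hsp90b1 were above it, and Calr was near it. The fold of Dnajc3 in muscle library 1 was 0.79 (0.593 to 1.06), so its interval included 1. Whether the element bears on these levels was not tested. Canx holds the element as well, Hsp90b1 holds a second copy, and the windows of Pdia3, Pdia4 and Dnajb11 do not contain these letters.

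**Figure D4:**
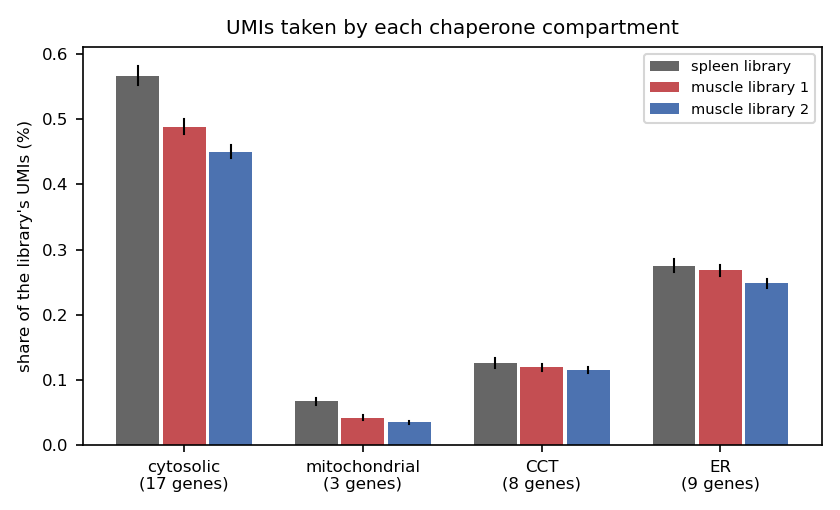
Share of each library's UMIs (percent) taken by the cytosolic, mitochondrial, CCT and ER chaperone genes in the spleen library (grey), muscle library 1 (red) and muscle library 2 (blue), with exact 95% binomial intervals as lines. The mitochondrial bars are at 0.0671% in spleen and at 0.0421% and 0.0346% in muscle, and the ER bars run from 0.275% to 0.268% and 0.248%.

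Summed over all 37 genes, chaperones took 1.03% of UMIs in spleen (1.01 to 1.05), 0.919% in muscle library 1 (0.904 to 0.934) and 0.848% in muscle library 2 (0.835 to 0.861). The mitochondrial genes had the lowest ratio of muscle to spleen among the compartments, 0.628 (0.563 to 0.701) and 0.517 (0.463 to 0.576). Cytosolic genes had ratios of 0.863 (0.833 to 0.893) and 0.795 (0.769 to 0.822). The muscle libraries also differed from each other, since the cytosolic share was 0.489% (0.478 to 0.5) in library 1 and 0.45% (0.441 to 0.46) in library 2.

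Within each library, some chaperones differed with the level of immediate early transcripts. Cells were ranked by the share of UMIs from 20 immediate early genes, switched on rapidly by receptor signals or by handling, and the top 25% (65, 169 and 174 cells) was set against the other cells. Hspa5 was at 1559 against 922 CPM in spleen, 1099 against 725 CPM in muscle library 1 and 926 against 722 CPM in muscle library 2, a fold of 1.69 (1.48 to 1.92), 1.52 (1.33 to 1.72) and 1.28 (1.14 to 1.44). Dnaja1 was 1.46-fold (1.23 to 1.72), 1.46-fold (1.22 to 1.74) and 1.37-fold (1.17 to 1.59) higher in such cells. Both were higher in all 3 libraries at 1000 UMIs per cell as well, Hspa5 by 1.83, 1.58 and 1.25-fold and Dnaja1 by 1.51, 1.56 and 1.64-fold. CCT genes were lower in these cells, with folds of 0.764 (0.658 to 0.882), 0.704 (0.616 to 0.801) and 0.806 (0.722 to 0.899), but in thinned cells the folds were 0.794, 0.78 and 0.98. The cells rich in immediate early UMIs were also shallower, with medians of 3163, 1682 and 2223 UMIs against 3640, 2115 and 2573. The part of depth in these values was tested by thinning alone, and the cells were ranked anew on the thinned counts.

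**Figure D5:**
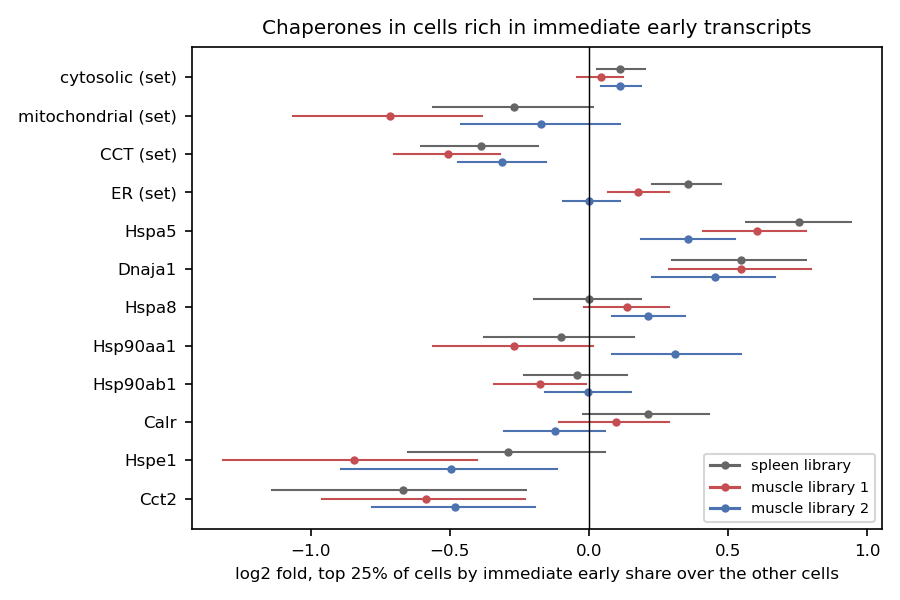
Log2 fold of the chaperone sets and of the 8 members with most UMIs in the top 25% of cells by immediate early share over the other cells of the same library, for the spleen library (grey), muscle library 1 (red) and muscle library 2 (blue), with exact 95% intervals as lines. Hspa5 and Dnaja1 lie above 0 in all 3 libraries and Cct2 below 0.

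Cells with markers of effector Tregs were set apart within muscle. Cells with a UMI of Il1rl1, the receptor of interleukin 33 on tissue Tregs (150 and 154 cells), had ER chaperone levels of 0.782 (0.725 to 0.843) and 0.853 (0.796 to 0.913) times those of other cells in muscle libraries 1 and 2, at medians of 2264 against 1915 UMIs and 2876 against 2360 UMIs per cell. Thinned cells, where the set was drawn anew from cells that kept an Il1rl1 UMI, gave 0.852 (0.733 to 0.986) and 0.84 (0.715 to 0.981). Canx had the lowest ratio among the ER genes there, with folds of 0.589 (0.408 to 0.832) and 0.362 (0.231 to 0.545). In cells with a UMI of Klrg1, an inhibitory receptor of late effector cells, Hspa5 was at 0.75 (0.668 to 0.842) and 0.779 (0.702 to 0.865) times the level of other cells, and 0.777 and 0.789 times in thinned cells. For the cytosolic, mitochondrial and CCT sets, the intervals did not exclude 1 in both libraries on both scales for either marker. The single genes named here and for the immediate early cells (Canx, Hspa5 and Dnaja1) were taken from comparisons of all 37 members. Their intervals do not allow for that choice.

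Genes that work with these chaperones were counted by lists. Among heat shock factors, small heat shock proteins and Hsp70 exchange factors, 3 of 19 genes passed the 2-fold rule as higher in muscle (Bag5, Bag6 and Hspa4l) and 1 as lower (Dnajb4), beside 7.47% and 3.45% of all genes, with a median log2 fold of 0.25 beside 0.05 for all genes. Bag6, a chaperone of membrane protein precursors, was at 35.6 CPM in spleen and 78.3 and 79.8 CPM in muscle. Further Hsp90 co-chaperones had 0 of 11 genes past the rule in either direction and a median of 0.06, with Ptges3 at 209, 222 and 180 CPM. Mitochondrial chaperones and proteases had 0 of 11 and a median of -0.23, and prefoldin and tubulin folding genes 0 of 13 and a median of 0.15. The exchange factors of mitochondrial Hsp70 differed from each other, with Grpel1 at 37.7, 61.3 and 91.3 CPM and Grpel2 at 22.4, 17.6 and 13 CPM, while Dnaja3, the J partner of that Hsp70, was at 33.6, 16.3 and 18.8 CPM.

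Of 31 genes of the unfolded protein response and ER quality control, 2 were higher (Txndc5 and Txndc11) and 1 lower (Dnajb9), beside 7.47% and 3.45% of all genes, with a median of 0.10. Neither count stands above its background. Dnajb9, a J protein that binds BiP, was at 114, 47.6 and 46.4 CPM, a fold of 0.418 (0.307 to 0.566) in library 1. Txndc5, a disulfide isomerase, was at 16.3, 37.2 and 37 CPM.

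Markers of other cell types were checked as lists. The 13 myeloid markers summed to 320, 1186 and 1189 CPM, of which Ccr2, a chemokine receptor that Tregs also express, gave 180, 1122 and 1123 CPM and Ly6c2 85.5, 47 and 43.3 CPM, while Adgre1 and S100a8 had 0 UMIs. Some were higher in spleen, with C1qa at 18.3, 0 and 1.04 CPM, Cd68 at 15.3, 0 and 0 CPM and C1qc at 6.11, 0.652 and 1.04 CPM. Lyz2 went the other way at 0, 1.96 and 3.13 CPM, and Itgam was at 13.2, 12.4 and 14.6 CPM. The 3 endothelial markers summed to 116, 62.6 and 58.4 CPM, all of it Pecam1, which leukocytes also express, with Cdh5 and Kdr at 0. The 5 CD8 and NK markers summed to 95.7, 76.3 and 81.4 CPM, of which Cd8b1 gave 52.9, 37.8 and 65.7 CPM, and the erythroid and platelet markers to 5.09, 11.1 and 19.3 CPM. The 9 muscle fibre and satellite cell markers summed to 28.5, 29.3 and 45.4 CPM, of which Acta1 gave 25.4, 24.1 and 38.6 CPM, with Myh4, Myh1 and Pax7 at 0. The 5 fibroblast markers summed to 4.07, 0.652 and 3.13 CPM with Pdgfra at 0. Only 5 of the 7 B cell markers were among the counted genes, as Ighm and Igkc were not. They summed to 16.3, 13.7 and 12.5 CPM with Ms4a1 at 0. The part of RNA from such cells in the chaperone values was not tested.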

How the data were processed

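The authors deposited a table of UMI counts of 23725 genes in 1627 cells, with 0 columns outside the labels. Per the submitters' processing notes, TopHat2, SAMtools and the mm10 build were used, with no versions. Annotation, strand setting and cell filter were not given in the sources used here. Counts were summed per library, scaled to CPM of the total and compared by fold. A gene needed 50 UMIs over the 3 libraries, and a call needed a 2-fold difference from spleen in both muscle libraries. Intervals at the 95% level are exact conditional binomial (Clopper-Pearson) for folds, exact Poisson for levels and exact binomial for shares. With 1 spleen library and no animal named, no test was run. Scripts were tested on simulated data. For shares of cells and for spread, cells were thinned without replacement to 1000 UMIs with seed 1, which left out 0 cells of spleen, 26 of muscle library 1 and 7 of muscle library 2. Sets of cells had at least 50 cells, apart from the Hspa1a and Hspa1b set named at the end of the alternatives, which had fewer. For values in thinned cells, the marker and immediate early sets were drawn anew from the thinned counts, so their cells can differ from the unthinned sets. No doublet caller was run. In the muscle libraries 12 and 7 cells exceeded 3 times the median UMI count, and 0 spleen cells did, and all were kept. The members, lists and tests were chosen with earlier results of these data known. All members are named; from each related list, the genes past the 2-fold rule, at most 4 each way, and otherwise the 2 with most UMIs come first. Bag6, Txndc5, Grpel2 and Dnaja3 were described further after their values were seen. Gene positions are from GENCODE M21, and promoter sequences from RefSeq (GRCm38.p6), searched in the 250 bases before each start on both strands. Protein sequences were not used here. Alternatives changed the fold, the UMI minimum, the weight and depth of cells, the muscle library used, or the scaling, which was by edgeR TMM factors, by DESeq2 size factors or by totals that left out ribosomal protein genes. After the data were seen, a setting without the 5 richest cells of each gene and a set of cells rich in Hspa1a and Hspa1b were added. The edgeR 4.0.16 and DESeq2 1.42.0 packages in R 4.3.3 supplied scaling factors only. All else used Python 3.11.15 with scipy 1.17.1, pandas 2.3.3, numpy 2.4.6 and matplotlib 3.10.9.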

Additional observations from a re-analysis of the deposited data

How the results depend on the processing

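No paired analysis was possible because the spleen has 1 library and the labels name no animal. Hsph1 was called lower under every setting, with a mean log2 fold of -1.72 to -1.43 over 7 settings of scaling, cell weight, depth and cells left out, and 25 of 37 members kept their direction under all 7 while 12 turned under at least 1. The count of members called higher was 1 at 1.5-fold (Pdia3), beside 15.9% of all genes. It was 1 with muscle library 1 alone (Pdia3), beside 10.3%, and 1 with muscle library 2 alone (Hspa1a, whose separate value is uncertain), beside 10.9%. The count lower was 4 at 1.5-fold, 2 at a minimum of 10 or 1 UMIs (Cct6a added, whose count is uncertain), 2 where each cell weighed the same and 2 in thinned cells (Hspe1 added), and 1 to 3 with 1 muscle library left out. The share of all genes called lower was 10.8% at 1.5-fold, 5.64% and 7.71% at a minimum of 10 and 1 UMIs, 4.28% with equal cell weight, 4.94% in thinned cells, and 6.96% and 6.89% without muscle library 1 or 2. Without muscle library 1 Hspe1 and Chordc1 joined Hsph1.

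The median log2 fold of all members was -0.28 with DESeq2 size factors, -0.37 without ribosomal protein genes in the totals and -0.28 without cells over 3 times the median, and the cytosolic median was -0.45 without ribosomal protein genes. The ER median was -0.14 with TMM factors, -0.16 with DESeq2 size factors, -0.25 without ribosomal protein genes, -0.02 with equal cell weight, -0.05 in thinned cells, -0.12 without high cells, and -0.08 to -0.05 with 1 muscle library left out.

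With ribosomal protein genes out of the totals, shares in spleen, muscle library 1 and muscle library 2 were 0.735%, 0.568% and 0.525% for cytosolic, 0.087%, 0.0489% and 0.0404% for mitochondrial, 0.163%, 0.139% and 0.134% for CCT, and 0.357%, 0.311% and 0.289% for ER genes, larger by construction. As a mean over cells, CCT was 0.118%, 0.105% and 0.109% and mitochondrial genes in muscle library 1 0.0363%. In thinned cells, CCT was 0.114%, 0.104% and 0.107%, mitochondrial genes in muscle library 1 0.0364% and ER genes in spleen 0.286%. Unthinned shares of cells were 17.8%, 9.64% and 7.2% for Hsph1, 45.9%, 25.8% and 23.8% for Hspe1, and 24.7%, 32.2% and 27.5% for Pdia3. At 750 UMIs per cell Hsph1 was seen in 4.6% of cells of muscle library 1, Hspe1 in 11.2% of muscle library 2, and Pdia3 in 5.02%, 12.3% and 9.22%. The causes of these shifts were not tested beyond the construction of each setting. A library with 0 UMIs of a gene still allows 3.05, 1.96 and 1.57 CPM (3 counts).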

Other observations

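Cells with at least 2 UMIs of Hspa1a and Hspa1b, a set of 12, 16 and 17 cells in spleen, muscle library 1 and muscle library 2 that was chosen after the data were seen, were compared with the other cells for the other members. The genes given were also chosen after their values were seen. The set had medians of 3603, 1511 and 2800 UMIs per cell against 3523, 1984 and 2484 in the others. Dnajb1 was at 314 CPM in these cells against 224 CPM in the others of spleen, at 415 against 118 CPM in muscle library 1 and at 564 against 186 CPM in muscle library 2, a fold of 1.4 (0.787 to 2.33), 3.52 (1.72 to 6.44) and 3.04 (2 to 4.44). The set held 16, 11 and 29 Dnajb1 UMIs, and the richest single cell of each library held 11, 9 and 20. Whether that cell was in the set was not examined, and the intervals cover counting alone. Hsp90aa1, the inducible Hsp90, was 1.78-fold (1.34 to 2.33), 1.94-fold (1.24 to 2.91) and 1.44-fold (0.981 to 2.06) higher. Hsph1 was at 0.466 (0.169 to 1.03), 0.729 (0.0876 to 2.68) and 1.84 (0.726 to 3.89) times the level of the other cells, with 6, 2 and 7 UMIs in the set, so its intervals included 1 in every library. The cytosolic set, which left out Hspa1a and Hspa1b but held Dnajb1 and Hsp90aa1, was 1.18-fold (1.06 to 1.32), 1.44-fold (1.24 to 1.67) and 1.24-fold (1.09 to 1.39) higher. The other sets lay on different sides between libraries. The mitochondrial set was at 1.54, 0.533 and 1.84 times, the CCT set at 0.518, 0.882 and 1.6 times and the ER set at 1.1, 0.7 and 1.4 times. Some members also differed in opposite ways, as Dnaja1 at 0.641 (0.404 to 0.97), 3.18 (2.2 to 4.47) and 1.11 (0.714 to 1.65), and Calr at 1.33, 0.409 and 1.94 times.

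Cells with a UMI of Gzmb, a granzyme of cytotoxic and effector cells, had Hspa1b at 0.406 (0.251 to 0.645) and 0.152 (0.0746 to 0.283) times the level of other cells in the muscle libraries, and 0.47 (0.254 to 0.836) and 0.386 (0.128 to 0.99) times in thinned cells. Since few cells hold these UMIs, intervals from counting alone are too narrow. In spleen, Dnajb1 was 1.47-fold (1.12 to 1.93) higher in cells with a UMI of Ccr7, a homing receptor of resting T cells, and 2.86-fold (1.62 to 5) in thinned cells. The Gzmb and Ccr7 results were picked out of comparisons of all 37 members over every marker, and their intervals do not allow for that choice.

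Across cells thinned to 1000 UMIs, the summed counts of the chaperone compartments were weakly related to each other. Spearman's rho between cytosolic and ER genes was 0.06 over 259 spleen cells, 0.16 over 648 cells of muscle library 1 and 0.16 over 687 cells of muscle library 2, in counts that share each cell's fixed total.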
